A study of Arabidopsis thaliana with 38 samples.

Results

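Roots of Arabidopsis thaliana in which NUC was driven in the ground tissue of the SHR line were compared with wild-type ground tissue, to see what stays different from wild type once this single factor is supplied. The comparison rests on 6 of the 38 arrays of the series, chosen by their titles: 3 of the UAS-NUC line and 3 of wild type (WT), all hybridised after one-cycle labelling. It covers 22746 probe sets, every one on the ATH1 array except 64 controls. All 6 arrays came from roots of the C24 ecotype 5 days after germination, grown on standard medium, and from cells sorted by the marker J0571. The UAS-NUC line carries the SHR background and a UAS transgene for NUC, driven in the cells that J0571 marks. The WT line carries the marker without the transgene. Set beside them were 3 one-cycle arrays of SHR, 15 of the other 5 UAS lines (UAS-BLJ, UAS-MGP, UAS-JKD, UAS-SCR and UAS-IME, all in the SHR background), and 6 two-cycle arrays of SHR and WT, all of C24. The labels do not say whether SHR stands for a mutant, nor whether a UAS line is 1 transgenic event. They name the arrays biological replicates but give no separate plants or days for them. A p-value here therefore measures only a spread between arrays, which may be technical.

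The ground tissue of the root is made of the cortex and the endodermis, which arise from a shared stem cell. SHR moves from the stele into the adjacent cell layer, where it acts with SCR and with zinc finger proteins of the BIRD family, of which NUC is one, in dividing that stem cell and in giving the endodermis its fate. The mature endodermis builds the Casparian strip, a lignin band in the wall that seals the layer, for which peroxidases, dirigent proteins and a receptor kinase pathway are needed.

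Values are linear intensity as deposited, which place each array's 2% trimmed mean at 250.0. Differences were tested with limma on log2(signal + 16), a scale that understates the change of low signals, and called means a p under 0.05 after Benjamini-Hochberg adjustment over all probe sets. The 10th percentile of the signal was 9.16 ± 0.78 (SD, n = 3) in UAS-NUC, 3.42 ± 0.44 in WT and 3.34 ± 0.1 in SHR. The exact two-sided permutation p for UAS-NUC against WT was 0.1, the smallest that 3 against 3 arrays can give. In the arrays of UAS-BLJ the 10th percentile was 3.6 to 3.98, near WT. In those of UAS-MGP, UAS-JKD, UAS-SCR and UAS-IME it was 8.08 to 10.2. The 3' to 5' log2 difference of the actin control, a sign of RNA integrity, was 1.65 ± 0.23 in UAS-NUC, -0.35 ± 0.59 in WT and 0.94 ± 0.035 in SHR, with the same exact p of 0.1. That of the GAPDH control was 0.14 ± 0.11 in UAS-NUC, -0.0433 ± 0.078 in WT and -0.0967 ± 0.023 in SHR, again with an exact permutation p of 0.1. The part of any of these measures in the results was not tested. All 5 cortex genes measured and all 4 endodermis genes measured had a mean over the 24 one-cycle arrays above the median signal, but so did both epidermis markers, the 1 stele marker and both stem cell genes measured, so this does not set the ground tissue apart. In WT alone, the cortex gene AT1G62510 was low, with a mean of 27.1. NUC, SHR, SCR, MGP and IME were not among the probe sets named here, so the level of the driven gene was not checked.

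UAS-NUC cells differed from WT cells at 3886 of 22746 probe sets (17.1%), with 2345 higher (10.3%) and 1541 lower (6.77%). A difference of at least 2-fold was called at 1515 (6.66%), of which 1060 were higher (4.66%) and 455 lower (2.0%). The 12 lowest named genes included 5 class III peroxidases and the dirigent gene DIR9, and the 12 highest included 3 other peroxidases and GH3.3, a gene of auxin conjugation. The gene with the highest difference among those named was AT2G25450, a dioxygenase of glucosinolate side chains (5.05). The median difference of all probe sets was 0.08. Leaving out UAS-NUC replicate 2 raised the number lower to 2474, and leaving out UAS-NUC replicate 3 brought it to 1022. The number higher was 1518 without UAS-NUC replicate 1. With the spread taken from the 6 arrays alone, 1716 probe sets were called, 1159 higher and 557 lower.

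**Figure D1:**
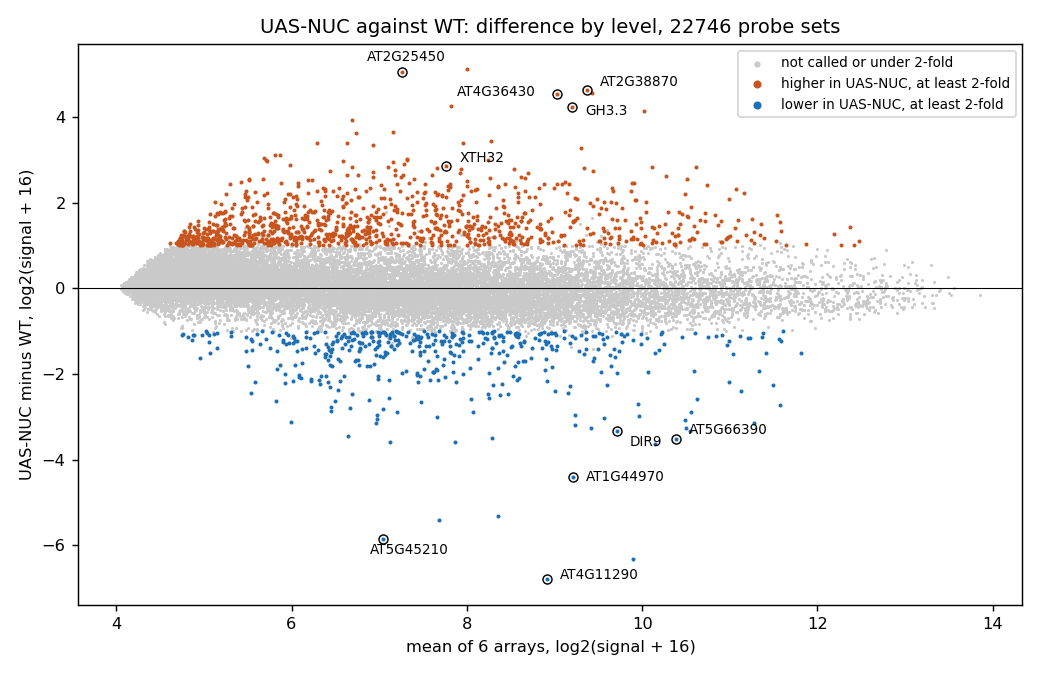
Difference between UAS-NUC and WT (log2(signal + 16), vertical axis) against the mean of the 6 arrays on the same scale (horizontal axis). Each point is 1 of 22746 probe sets, orange for the 1060 called higher and blue for the 455 called lower by at least 2-fold, with 10 named genes ringed. The lowest point is AT4G11290 at -6.79, further from 0 than any higher probe set.

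Part of the difference between the SHR and WT lines remained. This was read first on probe sets chosen without any array of the comparison, those that differed between SHR and WT by at least 2-fold in the two-cycle arrays. Of 1596 higher there in SHR (7.02% of all probe sets), 675 (42.3%) were also called higher in UAS-NUC than in WT, against 10.3% of all probe sets, and 27 were called lower. Their median difference was 0.57. Of 1649 lower there in SHR (7.25%), 407 (24.7%) were called lower in UAS-NUC, against 6.77% of all probe sets, and 46 were called higher. Their median was -0.34. The lower count was 622 without UAS-NUC replicate 2. The choice shares no array with the comparison, but any other difference between the SHR and WT lines would be counted in both. Its part was not tested.

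The same count on the one-cycle SHR arrays shares the WT arrays with the comparison and is given only as the size of what stays different. SHR differed from WT by at least 2-fold at 1044 probe sets higher (4.59%) and 1017 lower (4.47%). Of the 1044, 437 (41.9%) were called higher in UAS-NUC too, 599 (57.4%) were not called and 8 were called lower. Of the 1017, 411 (40.4%) were called lower in UAS-NUC, 586 (57.6%) were not called and 20 were called higher. A probe set that was not called is not shown to be at the WT level. Directly against SHR, UAS-NUC differed at 6453 probe sets (28.4%), 2425 of them (10.7%) by at least 2-fold, and this comparison shares the UAS-NUC arrays with that against WT.

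**Figure D2:**
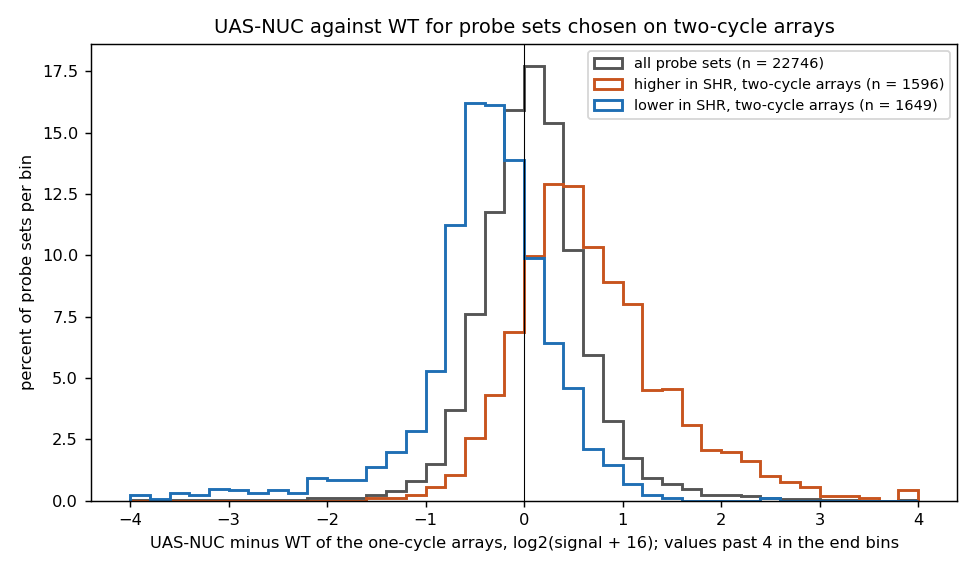
Distribution of the one-cycle difference between UAS-NUC and WT (log2(signal + 16), horizontal axis) as the percentage of each set of probe sets per bin (vertical axis). The 1596 probe sets higher in two-cycle SHR (orange) have a median of 0.57 and the 1649 lower (blue) a median of -0.34, against 0.08 for all 22746 (grey).

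Genes of the endodermis and its barrier stayed low. Of 12 genes listed for the endodermis and the Casparian strip, 4 were measured, and 3 of these were lower in UAS-NUC than in WT, against 6.77% of all probe sets, and none higher. DIR9, a dirigent protein, read 3170, 1994 and 2900 in the 3 WT arrays, 376, 239 and 313 in SHR, and 368, 131 and 311 in UAS-NUC. The UAS-NUC arrays lay in and around the SHR range and none reached the WT range. The difference from WT was -3.33 ± 0.31 (SE, limma adjusted p = 1.92e-07), a 10-fold lower level on this scale, and that from SHR was -0.28 with a 95% interval of -0.93 to 0.37. SGN1, a cytoplasmic kinase of the barrier pathway, read 1407, 1057 and 1514 in WT, 164, 126 and 147 in SHR, and 377, 114 and 269 in UAS-NUC. All UAS-NUC arrays were below all WT arrays, with a difference of -2.44 ± 0.33 (adjusted p = 2.33e-05). GSO1, the receptor kinase of the same pathway, stood apart from these. It read 1650, 1080 and 1451 in WT, 364, 227 and 252 in SHR, and 1136, 434 and 817 in UAS-NUC. Every UAS-NUC array was above every SHR array, and the highest overlapped the WT range. The difference from SHR was 1.37 (adjusted p = 0.000957). That from WT was -0.88 ± 0.27 (adjusted p = 0.0288) and was no longer called without WT replicate 2_1 (adjusted p = 0.111), WT replicate 2_3 (0.0871), UAS-NUC replicate 2 (0.147) or UAS-NUC replicate 3 (0.052). Nor was it called with the 6 arrays alone (0.151). The GSO1 means of the other UAS lines were above that of SHR (281) too. They ran from 386 in UAS-BLJ to 932 in UAS-IME, against 796 in UAS-NUC. In these bulk samples, fewer cells of a type and less RNA per cell cannot be told apart. The summed signal of the 4 genes was 4580 to 6530 in WT, 1200 to 1650 in SHR and 1100 to 2070 in UAS-NUC.

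Class III peroxidases, secreted enzymes that oxidise phenolics and cross-link wall polymers, held the strongest loss and some of the strongest gains. Of 73 listed genes 55 were measured, and 24 (43.6%) were called, against 17.1% of all probe sets: 16 higher and 8 lower, with 13 and 8 at 2-fold or more. The family's median was 0.26. AT4G11290 read 5358, 4416 and 5488 in WT, 36.4, 22.9 and 35.4 in SHR, and 30.0, 32.6 and 27.2 in UAS-NUC. The UAS-NUC arrays lay within the SHR range and were lower than WT by more than any other probe set, at -6.79 ± 0.26 (111-fold, adjusted p = 4.84e-14). AT1G44970 read 3182, 2015 and 3104 in WT and 213, 42.8 and 143 in UAS-NUC, a difference of -4.4 ± 0.36 (adjusted p = 2.91e-08). AT5G66390 read 5236, 3516 and 4921 in WT and 563, 187 and 511 in UAS-NUC, a difference of -3.51 ± 0.42 (adjusted p = 3.92e-06). In both genes the second array was the lowest of each of these groups, and the groups did not overlap. Prx37 (-3.6) and AT4G16270 (-3.44) were also over 10-fold lower. For these 5 genes the differences between UAS-NUC and SHR ran from -0.28 to 0.12 and none was called. The two-cycle arrays, which share no array with these, had SHR below WT by -7.43 for AT4G11290, -7.04 for AT1G44970 and -6.66 for AT5G66390.

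Other peroxidases had risen above WT. AT4G36430 read 155, 60 and 83.7 in WT, 1115, 782 and 889 in SHR, and 3574, 1322 and 3310 in UAS-NUC. Every UAS-NUC array was above every SHR array, and every SHR array above every WT array. It was 4.53 ± 0.44 above WT (23.1-fold, adjusted p = 2.93e-07) and 1.43 above SHR (adjusted p = 0.0195). AT1G14550 was 3.44 above WT and 2.21 above SHR (adjusted p = 1.6e-05 and 0.00129), with UAS-NUC arrays at 1437, 494 and 1432. Neither rise was particular to UAS-NUC. The AT1G14550 means of the other UAS lines, all above that of SHR (228), ran from 507 in UAS-MGP to 1593 in UAS-IME. For AT4G36430 they ran from 508 in UAS-MGP to 4026 in UAS-IME, against 929 in SHR and 2735 in UAS-NUC. AT5G64120 read 42.6, 37.3 and 27.5 in WT and 1373, 515 and 1291 in UAS-NUC (4.26 ± 0.35, adjusted p = 3.21e-08). Its UAS-NUC and SHR ranges overlapped, with a difference of 0.02 (95% interval -0.71 to 0.75). AT5G64100, chosen after its values were seen, was at a high level throughout. It had means of 961 in WT, 4000 in SHR and 4940 in UAS-NUC, which was 2.32 above WT (adjusted p = 8.21e-06).

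Some members were above both WT and SHR. These, and AT4G30170 below, were chosen after their values were seen. AT5G17820 read 285, 78.2 and 205 in WT, 374, 113 and 257 in SHR, and 1143, 478 and 1244 in UAS-NUC, which was above both other groups in every array. It was called against WT (2.28, adjusted p = 0.00475) and against SHR (1.9, adjusted p = 0.0119). AT3G49960 was 1.64 above WT (adjusted p = 0.0184) and lost that call without WT replicate 2_2 (adjusted p = 0.0737), UAS-NUC replicate 1 (0.0814) or UAS-NUC replicate 3 (0.0672). The means of AT5G17820 were 955 in UAS-NUC, 3212 in UAS-JKD and 2567 in UAS-SCR. Those of AT3G49960 were 100, 373 and 138. In UAS-BLJ, UAS-MGP and UAS-IME both genes had lower means than in UAS-NUC. The abundant AT4G30170 was not called, at 6738, 6062 and 6770 in WT and 9181, 6644 and 8417 in UAS-NUC (0.3, 95% interval -0.05 to 0.64).

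**Figure D3:**
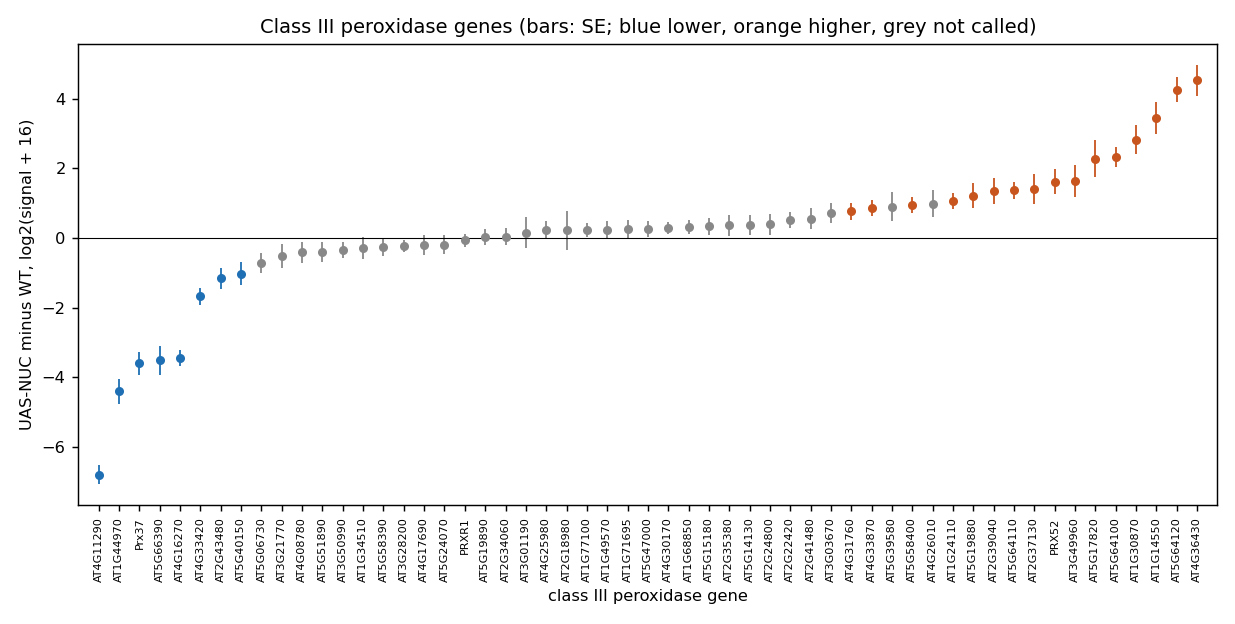
Difference between UAS-NUC and WT (log2(signal + 16), vertical axis, bars SE) for each of the 55 class III peroxidase genes measured (horizontal axis), sorted by the difference. The 8 genes called lower (blue) reach -6.79 and the 16 called higher (orange) reach 4.53, with the 31 not called (grey) around 0.

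Dirigent proteins, which steer the coupling of phenolic radicals, also split. Of 25 listed genes 15 were measured: 4 were lower, 2 were higher and 9 were not called, so that 40% were called against 17.1% of all probe sets. AT4G13580 read 4677, 3253 and 4486 in WT, 455, 201 and 452 in SHR, and 862, 263 and 669 in UAS-NUC. The UAS-NUC and SHR ranges overlapped and both lay far below WT, with UAS-NUC at -2.9 ± 0.38 (adjusted p = 1.27e-05). AT2G21100 was at -2.9 ± 0.28 (adjusted p = 2.84e-07), with 498, 273 and 421 in WT and 51.3, 24.4 and 41.8 in UAS-NUC. The neighbours AT4G11190 and AT4G11210, chosen after their values were seen, went opposite ways. AT4G11190 read 4041, 2129 and 3126 in WT, 233, 158 and 108 in SHR, and 802, 659 and 897 in UAS-NUC. The UAS-NUC arrays stood between the other groups without overlap, 2.18 above SHR (adjusted p = 8.34e-06) and still -1.92 from WT (adjusted p = 3.49e-05). AT4G11210 read 230, 90.7 and 197 in WT, 1461, 845 and 715 in SHR, and 142, 189 and 188 in UAS-NUC. Here UAS-NUC lay inside the WT range, with a difference of 0.08 from WT (95% interval -0.91 to 1.07) and of -2.38 from SHR (adjusted p = 0.00107). In the two-cycle arrays the difference between SHR and WT was not called for AT4G11190 (-0.5, adjusted p = 0.858) or AT4G11210 (1.63, adjusted p = 0.153). The two-cycle WT arrays spread widely for AT4G11190, with a mean of 1435 and an SD of 2432.

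AT3G22620, named among the 6 lowest genes of SHR against WT in the two-cycle arrays, encodes a protein of the lipid transfer type. So does AT2G48130, among the 12 lowest genes of UAS-NUC against WT. Such proteins bind or carry lipids, and that family was not read as a list. AT3G22620 read 8001, 6186 and 7948 in WT, 555, 486 and 511 in SHR, and 1162, 521 and 904 in UAS-NUC. The difference from WT was -3.14 ± 0.35 (adjusted p = 1.65e-06), and that from SHR was not called (0.65, 95% interval -0.08 to 1.37). AT2G48130 was at -3.58 ± 0.24 (adjusted p = 1.17e-09), with 515, 326 and 597 in WT and 38.8, 10.2 and 29.3 in UAS-NUC. The cupredoxin gene AT1G72230 (-3.5) and AT4G38690 (-3.14), which encodes a phospholipase C-like phosphodiesterase, were also among the 12 lowest genes.

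**Figure D4:**
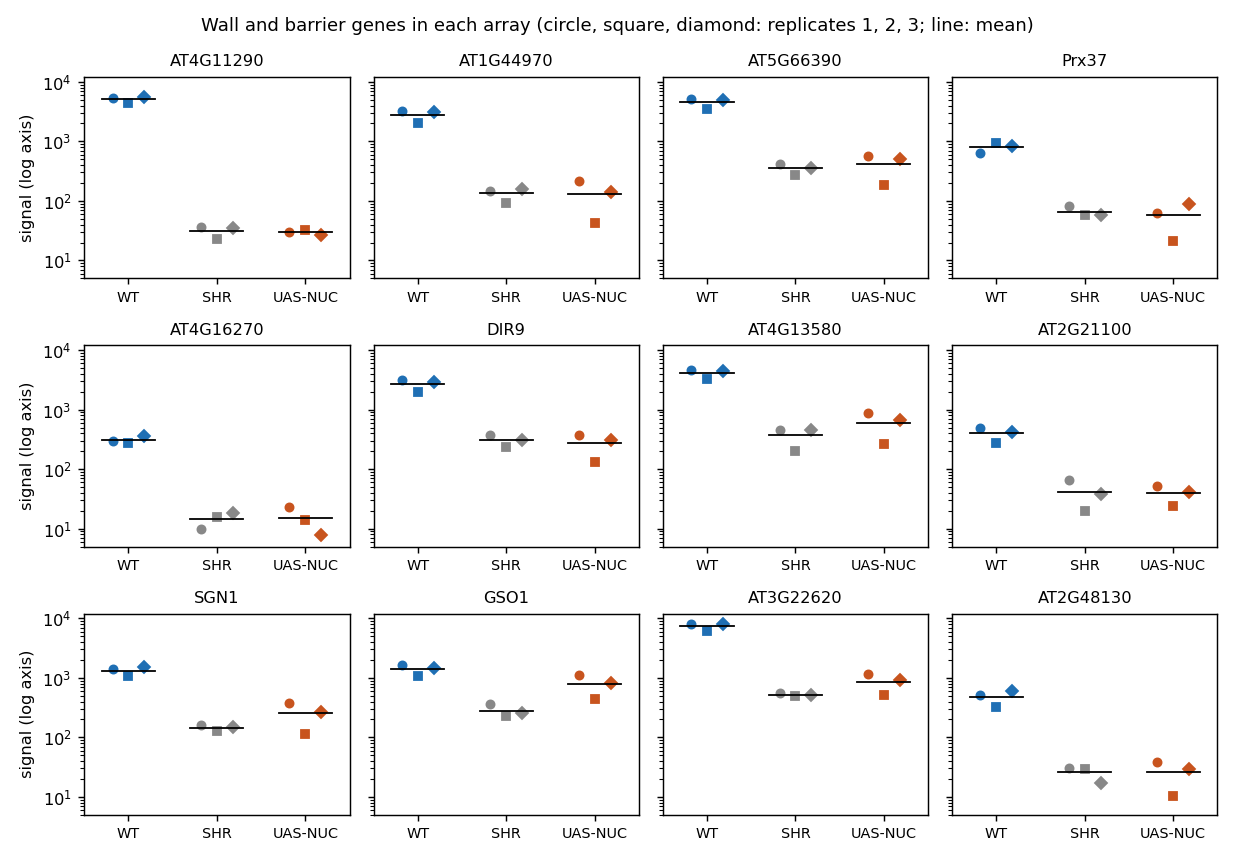
Signal (log axis) of 12 wall and barrier genes in each one-cycle array of WT (blue), SHR (grey) and UAS-NUC (orange), with circles, squares and diamonds for replicates 1, 2 and 3 and a line at the mean. In 11 of the 12 panels all UAS-NUC arrays lie far below the WT arrays. In GSO1 the highest UAS-NUC array, at 1136, is above the lowest WT array, at 1080.

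Among genes that loosen or modify the wall, XTH enzymes, which cut and rejoin xyloglucan, had 4 of 10 members higher and 2 lower, against 10.3% and 6.77% of all probe sets. These 6 calls fell to 2 with the 6 arrays alone or without UAS-NUC replicate 1, and to 3 without WT replicate 2_2, WT replicate 2_3 or UAS-NUC replicate 3. This list held only measured genes matched by name, so family members without a matching name were not counted. The same holds for the lists of TRICHOME BIREFRINGENCE-LIKE genes, expansins, glutathione S-transferases, UDP-glycosyltransferases, cytochromes P450, serine carboxypeptidase-like genes and histones below. XTH32 was higher in UAS-NUC than in WT and SHR alike. It read 86.0, 49.0 and 64.6 in WT, 104, 52.9 and 48.0 in SHR, and 776, 419 and 564 in UAS-NUC. The UAS-NUC arrays were above all arrays of WT and SHR, which overlapped each other. The difference was 2.85 ± 0.26 from WT (adjusted p = 1.5e-07) and 2.85 from SHR. In the two-cycle arrays, however, XTH32 was higher in SHR than in WT, with means of 260 and 58.0 (1.8, adjusted p = 0.015). XTH32 was also called higher than in WT in UAS-BLJ (2.4), UAS-MGP (2.07), UAS-IME (1.89) and UAS-JKD (1.54). In UAS-SCR it was not called (-0.61). XTH16 went the other way, with 489, 598 and 599 in WT, 73.7, 74.3 and 67.5 in SHR, and 24.1, 91.1 and 68.4 in UAS-NUC (-3.01, adjusted p = 6.32e-06). Of 23 TRICHOME BIREFRINGENCE-LIKE genes, whose products acetylate wall polysaccharides, 4 were higher and 5 lower (39.1% called, against 17.1% of all probe sets). TBL30 (-2.58, adjusted p = 1.01e-08) and TBL19 (-2.87, adjusted p = 2.03e-05) were low, and TBL41 was high (2.12, adjusted p = 9.75e-06). Expansins, which loosen walls without cutting them, had 4 of 14 members higher, against 10.3% of all probe sets, and none lower. The count fell to 2 with the 6 arrays alone or without WT replicate 2_3. Of the 4 called, EXPA8 (1.17, adjusted p = 0.000946) kept its call in every setting tried. EXPA4 (0.94) lost it without WT replicate 2_3 (adjusted p = 0.0518), UAS-NUC replicate 2 (0.0804) or UAS-NUC replicate 3 (0.0662). XTH19 (0.96) lost it without WT replicate 2_2 (adjusted p = 0.133), WT replicate 2_3 (0.0539), UAS-NUC replicate 1 (0.132) or UAS-NUC replicate 3 (0.095). With the 6 arrays alone neither EXPA4 (adjusted p = 0.133) nor XTH19 (0.117) was called.

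The other 2 expansins were the markers of root hairs, which are epidermal cells. EXPA7 read 48.9, 0.953 and 8.42 in WT, 61.6, 22.3 and 43.7 in SHR, and 110, 58.2 and 96.0 in UAS-NUC. EXPA18 read 54.6, 36.9 and 33.2 in WT and 118, 80.7 and 128 in UAS-NUC. Both were called higher (1.76 and 1.11, adjusted p = 0.00984 and 0.0292), and neither call held without WT replicate 2_2 (adjusted p = 0.0729 and 0.0848). EXPA7 was not called with the 6 arrays alone either (adjusted p = 0.056). EXPA18 also lost its call without WT replicate 2_3 (adjusted p = 0.104), UAS-NUC replicate 1 (0.0933) or UAS-NUC replicate 3 (0.111), and after quantile normalization (0.054). These were the 2 of 11 listed epidermis markers measured. Their summed signal was 37.9 to 104 in WT, 92.0 to 140 in SHR and 139 to 228 in UAS-NUC, and its part in the gains of peroxidases was not tested. Of 18 stele markers 1 was measured, LHW, which was not called (-0.48, adjusted p = 0.288), and no root cap marker was measured.

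In the cortex list, all 5 members were measured: 2 were higher, 1 lower and 2 not called (60% called, against 17.1% of all probe sets). AT1G62510 read 23.7, 28.1 and 29.4 in WT, 1423, 953 and 1058 in one-cycle SHR, and 143, 49.7 and 120 in UAS-NUC. Its UAS-NUC arrays were far below SHR (-3.35, adjusted p = 2.52e-08) and still above WT (1.39, adjusted p = 0.000834). In the two-cycle arrays its mean was 13.3 in SHR and 66.8 in WT, the opposite order. NPF6.4, a nitrate transporter family gene, was higher in UAS-NUC (0.97, adjusted p = 0.000259), and AT5G02000 lower (-1.21, adjusted p = 0.00038). The summed signal of the 5 genes was 1190 to 1690 in WT, 3520 to 4050 in SHR and 1530 to 1990 in UAS-NUC.

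Of the regulators, 4 of 12 listed BIRD and GRAS genes were measured, with 3 lower than WT, against 6.77% of all probe sets, and none higher. BLJ, a BIRD factor, read 212, 166 and 210 in WT, 17.9, 20.9 and 3.86 in SHR, and 14.5, 18.7 and 46.9 in UAS-NUC. It overlapped SHR (difference 0.47, 95% interval -0.32 to 1.27) and was far below WT (-2.38 ± 0.38, adjusted p = 0.000146). BIB was also below WT (-0.97, adjusted p = 0.00095), and its low signal leaves it untested with a filter at the 40th percentile. JKD, a BIRD factor that helps hold SHR in the nucleus, read 151, 169 and 123 in WT, 213, 175 and 257 in SHR, and 70.6, 59.1 and 64.7 in UAS-NUC. It was below both WT (-1.01, adjusted p = 0.00296) and SHR (-1.5, adjusted p = 6.27e-05) without overlap. The GRAS gene SCL23 was not called against WT (-0.13, 95% interval -0.61 to 0.36).

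Of 8 measured auxin response genes 3 were higher in UAS-NUC than in WT, against 10.3% of all probe sets, and none lower. GH3.3, which conjugates auxin to amino acids, read 132, 93.9 and 136 in WT, 2198, 1334 and 1878 in SHR, and 3469, 1708 and 2750 in UAS-NUC. The UAS-NUC and SHR ranges overlapped and both were far above WT (UAS-NUC 4.24 ± 0.36, adjusted p = 5.85e-08). WES1, another gene of this family, was at 1.68 (adjusted p = 0.000278) and the auxin repressor IAA29 at 1.49 (adjusted p = 0.000791). IAA29 was low throughout, at 1.5, 0.819 and 1.05 in WT and 50.7, 20.8 and 29.3 in UAS-NUC. In the two-cycle arrays SHR was above WT for GH3.3 (4.76, adjusted p = 0.00277). It was not called there for WES1 (0.19, adjusted p = 0.794) or IAA29 (-0.57, adjusted p = 0.318). AT2G38870, a proteinase inhibitor of the PR-6 type named among the 12 highest genes, read 163, 104 and 93.7 in WT and 4076, 1989 and 4356 in UAS-NUC (4.63 ± 0.36, adjusted p = 1.16e-08). Of 4 wound and stress genes measured, CML37, a calcium sensor (1.92, adjusted p = 0.000641), and WRKY53, a transcription factor of senescence and defence (1.54, adjusted p = 0.00204), were higher, against 10.3% of all probe sets. Glutathione S-transferases had 2 of 13 members higher (15.4%, near the 17.1% of all probe sets), with GSTU25 at 2.43 (adjusted p = 1.39e-05), and 4 were called without UAS-NUC replicate 2. UDP-glycosyltransferases had 10 of 51 higher and 3 lower (25.5% called, against 17.1% of all probe sets), and the 13 calls fell to 7 with the 6 arrays alone. Cytochromes P450 matched by name had 6 of 24 higher and none lower (25% called, against 17.1% of all probe sets). Their 6 calls fell to 2 without UAS-NUC replicate 1 and to 3 without WT replicate 2_3 or with the 6 arrays alone. UGT87A2 had the smallest adjusted p of the UDP-glycosyltransferases, with 62.7, 77.1 and 67.0 in WT, 175, 145 and 181 in SHR, and 429, 342 and 391 in UAS-NUC (2.25 ± 0.18, adjusted p = 1.46e-08).

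The remaining genes of the 12 highest were AT5G40590, with a C1 domain (3.93, adjusted p = 4.01e-07), AT1G65500 (2.99, adjusted p = 5.25e-07), AT1G52200, of the PLAC8 family (2.96, adjusted p = 9.78e-07), and RCA. RCA encodes rubisco activase, a protein of photosynthesis, and read 27.9, 53.4 and 42.3 in WT, 129, 130 and 95.4 in SHR, and 1071, 205 and 374 in UAS-NUC. Its UAS-NUC arrays were above all WT and SHR arrays but spread widely, and its means were 808 in UAS-BLJ and 1020 in UAS-IME (UAS-NUC against WT 3.02 ± 0.42, adjusted p = 2.82e-05).

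Other lists were thinly measured or little changed. Gibberellin genes had 1 of 5 measured members lower (6.77% of all probe sets were), GID1A, a gibberellin receptor (-0.46, adjusted p = 0.0297), whose call was lost without WT replicate 2_2 (adjusted p = 0.0882), WT replicate 2_3 (0.0937), UAS-NUC replicate 1 (0.111) or UAS-NUC replicate 2 (0.0719). The lignin list had 1 member measured, HCT (0.71, adjusted p = 0.0387), whose call was lost without WT replicate 2_2 (adjusted p = 0.186), WT replicate 2_3 (0.0725), UAS-NUC replicate 1 (0.222) or UAS-NUC replicate 3 (0.124). With the 6 arrays alone neither GID1A (adjusted p = 0.198) nor HCT (0.165) was called. GID1A was not called there with a block for replicate number either (0.118). Serine carboxypeptidase-like genes had 1 of 29 higher and 5 lower (20.7% called, near the 17.1% of all probe sets), scpl46 the lowest (-1.78, adjusted p = 2.54e-06). Of 5 measured genes of endoplasmic reticulum bodies, 1 was higher, against 10.3% of all probe sets. It was JAL22, a lectin (1.56, adjusted p = 0.000152). NAI1, the regulator of these bodies, was at 259, 121 and 139 in WT, 58.8, 30.3 and 46.7 in SHR, and 125, 132 and 138 in UAS-NUC. It overlapped WT (-0.29, 95% interval -0.81 to 0.24) and was above SHR in every array (1.29, adjusted p = 0.000847).

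The second array of UAS-NUC and of WT shared a pattern in dividing-cell genes. Of 11 genes of DNA replication, mitosis and histones, the second array was the highest of its group for 10 in UAS-NUC and for 9 in WT, while over all probe sets it was the highest for 40.1% and 39.5%. MCM7, a replication helicase subunit, read 138, 532 and 231 in UAS-NUC and 466, 632 and 425 in WT. HTB4, a histone H2B, read 699, 2148 and 811 in UAS-NUC and 1871, 2629 and 2243 in WT. Among the 24 peroxidases called, the second array was the lowest for 16 in each group, against 40.5% of all probe sets in UAS-NUC and 35.9% in WT. It also had the lowest mean correlation with its group in UAS-NUC (0.949, against 0.959 and 0.97). Its part in the differences was not tested beyond leaving it out.

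The difference between UAS-NUC and WT in these genes moved with single arrays. Of 7 histone genes, 4 were lower in UAS-NUC than WT, against 6.77% of all probe sets, and none higher. With the 6 arrays alone 1 of the 4 was called, and HTB4, HTB11 and HON4 had adjusted p of 0.142, 0.0897 and 0.133. HTB1 kept the call in every setting tried (-1.25, adjusted p = 0.00387). HTB4 (-1.05) was called at an adjusted p of 0.0265, but not without WT replicate 2_2 (0.102), WT replicate 2_3 (0.07), UAS-NUC replicate 1 (0.171) or UAS-NUC replicate 3 (0.134). HTB11 (-0.82, adjusted p = 0.0199) was not called without WT replicate 2_3 (0.0651), UAS-NUC replicate 1 (0.12) or UAS-NUC replicate 3 (0.0981). HON4, a linker histone (-0.77, adjusted p = 0.0241), was not called without WT replicate 2_2 (0.0934), WT replicate 2_3 (0.0648), UAS-NUC replicate 1 (0.18) or UAS-NUC replicate 3 (0.0713). MCM7 (-0.91, adjusted p = 0.114) and the mitotic kinases AUR1 (-0.66, 0.28) and AUR2 (-0.55, 0.277) were not called. Without UAS-NUC replicate 2 all 3 were called lower, at -1.4 (adjusted p = 0.00757), -1.21 (0.0191) and -0.96 (0.0282). With the 6 arrays alone and a block for replicate number, MCM7 was called (-0.91, adjusted p = 0.0308), and AUR1 and AUR2 were not.

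To place UAS-NUC among the lines, it was set against the mean of the other 5 UAS lines, a contrast added after the values were seen. It shares no array with WT or SHR. It was called at 1888 probe sets (8.3%), of which 480 (2.11%) differed by at least 2-fold. The genes below were picked for it with their values known, so their tests describe size and error only. AT2G14900, of the gibberellin-regulated family, read 4554, 4389 and 5255 in WT, 117, 105 and 58.3 in SHR, and 533, 312 and 556 in UAS-NUC. UAS-NUC was 2.14 above SHR (adjusted p = 1.21e-06), 1.66 above the other lines (adjusted p = 1.29e-06) and still -3.34 from WT. The means of the other lines ran from 84.8 in UAS-MGP to 284 in UAS-IME. AT4G11190 was 1.8 above the other lines (adjusted p = 5.12e-06). AT4G15390, an acyltransferase gene of the BAHD type, read 16.9, 18.7 and 12.1 in WT, 514, 372 and 334 in SHR, and 57.3, 51.2 and 55.0 in UAS-NUC. It was -3.41 from the other lines (adjusted p = 1.66e-10), whose means were 429 to 1330. It remained 1.15 above WT (adjusted p = 0.00435), a call lost with a pseudocount of 64 (adjusted p = 0.117).

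Some levels set UAS-NUC apart from WT and SHR at once. AT1G22900, a dirigent gene, read 161, 97.0 and 284 in UAS-NUC, and had means of 17.0 in WT, 8.83 in SHR and 3.24 to 18.5 in the other lines. In two-cycle SHR, however, its mean was 310. AT4G23670, of the family of polyketide cyclase-like proteins, read 1895, 1026 and 1544 in UAS-NUC with means of 394 in WT and 196 in one-cycle SHR, and 2593 in two-cycle SHR. The small heat shock genes AT1G52560 and HSP17.6C were also high. AT1G52560 read 106, 116 and 89.9 in WT, at most 34.1 in SHR, and 885, 135 and 803 in UAS-NUC. It was above WT (2.01, adjusted p = 0.00384, but 0.0781 with the 6 arrays alone) and above the other lines (3.11, adjusted p = 4.28e-06). HSP17.6C read 108, 622 and 268 in WT and 892, 718 and 881 in UAS-NUC (1.58, adjusted p = 0.0199). That call was lost without WT replicate 2_1 (adjusted p = 0.145), WT replicate 2_3 (0.0542), UAS-NUC replicate 1 (0.0639) or UAS-NUC replicate 3 (0.0641), and with the 6 arrays alone (0.0926). Of 5 heat shock genes measured these 2 were higher, against 10.3% of all probe sets, and none lower. The count was 0 with the 6 arrays alone and 4 without UAS-NUC replicate 2.

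**Figure D5:**
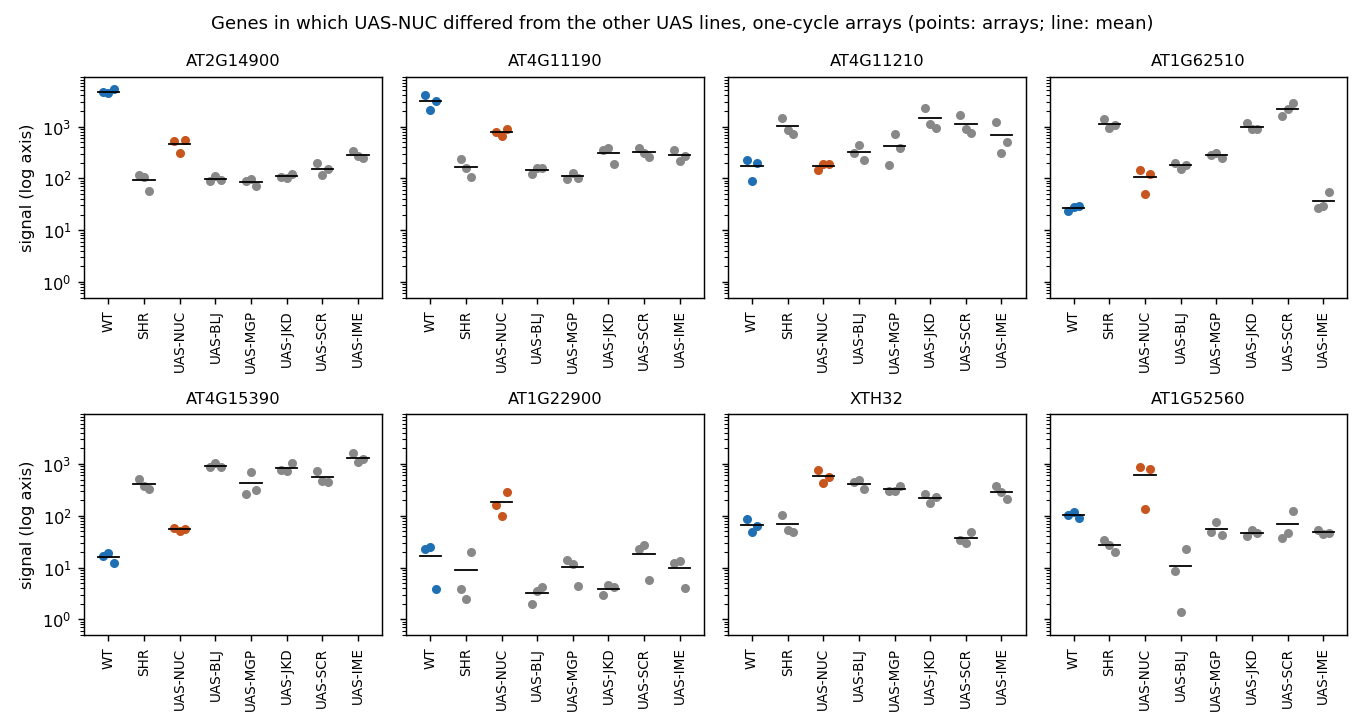
Signal (log axis) of 8 genes in each one-cycle array of WT (blue), UAS-NUC (orange), and SHR and the other 5 UAS lines (grey), with a line at the mean. UAS-NUC lies between WT and the other lines in AT2G14900, AT4G11190 and AT4G15390, and above all other groups' means in AT1G22900, XTH32 and AT1G52560.

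Several of the extremes had levels in other groups that stood far from those of their neighbours in the design. AT5G45210, a TIR-NBS-LRR resistance gene, read 776, 1166 and 1065 in WT and 1.08, 1.34 and 1.67 in UAS-NUC, the means of SHR and the other lines being 1.15 to 6.1. AT4G29200 had means of 1336 in WT and 15.8 in UAS-NUC, and 9.29 in one-cycle SHR, yet 1517 in two-cycle SHR. AT2G33220, a subunit of mitochondrial complex I, read 94.6, 88.9 and 91.0 in WT and 852, 856 and 812 in UAS-NUC. Its means were 106 in UAS-JKD and 101 in UAS-SCR, near WT, and 950 in SHR and 1259 in cells sorted by the cortex marker CO2 in the Columbia ecotype. AT2G25450, a dioxygenase of glucosinolate side chains, had the same order, with means of 11.3 in WT, 938 in UAS-NUC, 26.3 in both UAS-JKD and UAS-SCR, and 6025 in CO2 cells. AT2G40010, a ribosomal protein of the P0 type, had means of 1.93 in WT, 405 in SHR, 136 in UAS-NUC and 646 in WT meristems of Columbia.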

How the data were processed

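The members and gene lists were chosen with earlier results of these data known, partly after their values were seen. The authors deposited linear 1-colour intensity values. Per the submitters' processing notes these come from MAS5, whose version the sources used here do not give. Of 22746 probe sets, 13513 have 1 gene in the probe annotation, 503 several and 8730 none, so lists are partly measured. Probe sets with several genes were not used for naming. Names of 13484 were matched to the reference gene list of assembly TAIR10.1. Lipid transfer, TIR-NBS-LRR and ribosomal families were not read as lists, since that list holds no such descriptions here. Class III peroxidases and dirigent genes came from lists of loci. The XTH, expansin, TRICHOME BIREFRINGENCE-LIKE, cytochrome P450, UDP-glycosyltransferase, glutathione S-transferase, serine carboxypeptidase-like and histone lists came from matching symbols and synonyms. They hold only measured genes and may be a part of each family.

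limma 3.58.1 (functions lmFit and eBayes, trend on; R 4.3.3, data.table, version 1.17.8) was run on log2(intensity + 16) of the 24 one-cycle J0571 arrays (8 groups of 3), without a filter on low values. The two-cycle arrays were fitted alone. Python 3.11.15 (pandas 2.3.3, numpy 2.4.6, matplotlib 3.10.9) made tables and figures. The fit was tested on simulated data. Named genes are the 12 highest and 12 lowest among 2-fold calls with 1 gene and a mean above the median in the higher group, 6 at each end of the two-cycle contrast, and up to 4 members per list (2 with under 2 called). A further 10 genes were chosen after their values were seen. Deviations of same-numbered WT and UAS-NUC arrays from their group means correlated at r = 0.569, 0.697 and 0.113 for the 3 pairs. Some arrays of different number did so too, WT 2_1 with UAS-NUC 3 at 0.493 and WT 2_3 with UAS-NUC 1 at 0.206. The numbers are therefore not shown to pair the arrays. A fit with replicate number as a block was run too. The number of arrays limits the precision.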

Additional observations from a re-analysis of the deposited data

How the results depend on the processing

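The 100 named genes were recomputed under 13 other settings, except that the filter at the 40th percentile tested 97 of them, and no call reversed where tested. Of the 84 called, 82 of which the filter tested, 67 were called in every setting that tested them and 17 lost the call in at least 1. With the replicate block on 24 arrays, 3855 probe sets were called against 3886 and no named call changed. With 6 arrays alone 1716 were called (1159 higher, 557 lower), and 414 and 199 of the two-cycle sets. The cause of this drop was not tested. With the replicate block added to these 6, a setting chosen after seeing the data, 3813 were called. A pseudocount of 64 left 760 at 2-fold (508 higher, 252 lower) by its construction. Quantile normalization called 3291, 53.2% of them higher against 60.3%, with a median of -0.03. The filter called 3754 and eBayes without trend 3798. Leaving out 1 array gave 2619 to 5402 calls, 1518 to 2928 higher, 1022 to 2474 lower, 1270 to 2330 at 2-fold, 840 to 1534 higher and 417 to 796 lower at 2-fold, and 482 to 845 and 292 to 622 of the two-cycle sets. The highest of each came without UAS-NUC replicate 2, and the cause was not tested. Low signals are the least certain, and the 10th percentile of the arrays differed between the groups.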
